A study of Sus scrofa with 8 samples.

Results

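CDX2 and CDH17 are a pair of genes known above all from the intestine: CDX2 encodes a homeobox transcription factor and CDH17 encodes a cadherin. They were followed in pig (Sus scrofa) cells at 4 stages of differentiation in culture, with 2 RNA sequencing libraries per stage. The start was porcine pluripotent stem cells, called PSC. The following stages were labelled definitive endoderm, or DE, anterior foregut endoderm, or AFE, and, as the last, lung progenitor organoids, or LPO. The labels used here give no genotype, strain, dose or day. The genes were taken by symbol, as 2 of the 25578 genes of the deposited table, and were chosen because their measured levels ran opposite ways between the last stages. Their levels are therefore given as a description, with no test. Each stage is compared with the one before it, and LPO also with PSC. The study set out to obtain lung progenitor-like organoids from pig pluripotent cells, and neither gene is a lung marker.

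CDX2 is the homeobox factor that sets and maintains intestinal identity in the endoderm. In the early mammalian embryo it is also needed by the trophectoderm, and later it acts with CDX1 and CDX4 in the posterior body axis. CDH17, or liver-intestine cadherin, joins epithelial cells of the intestine at their lateral membranes and lacks the catenin-binding tail of the classical cadherins. In human and mouse intestinal cells CDH17 is a known target of CDX2, and both are used in pathology to recognise intestinal epithelium. Lung endoderm arises from the anterior foregut, and intestine from the endoderm behind it.

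The libraries held 36004372 to 67566269 estimated counts, and about 4 counts stood for 1 read pair. Whether the pair of libraries at a stage stands for independent cultures is not said in the labels, and p-values measure only the spread between them, which may be technical. The stage labels were checked against defining genes. POU5F1, the core pluripotency factor, stood at 3260, 256, 0.58 and 0.02 FPKM (fragments scaled to transcript length and library size by the authors) in PSC, DE, AFE and LPO. SOX17, a definitive endoderm factor, was highest in DE at 87.4 FPKM. NKX2-1, the lung and thyroid endoderm factor, was at 0 in PSC and DE and averaged 7.78 FPKM in AFE and 18.8 FPKM in LPO. A gene was called at an adjusted p under 0.05 in edgeR's quasi-likelihood test, and calls were many: of 19346 genes tested, 53.8% were called in DE against PSC (30.8% higher, 23.0% lower), 35.3% in AFE against DE (17.9% higher, 17.4% lower), 59.8% in LPO against AFE (30.2% higher, 29.6% lower) and 70.3% in LPO against PSC (41.5% higher, 28.8% lower). Of 8 tested pluripotency genes 6 fell and 2 rose in DE against PSC. Of 11 definitive endoderm genes 8 rose and 3 fell in that step. Of 14 anterior foregut genes 7 rose and 3 fell in AFE against DE, so each list also held genes that ran against its label.

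CDX2 (ENSSSCG00000009317) is a protein-coding gene on the minus strand of chromosome 11, from 5339716 to 5346057, with 1 transcript in the file. The coordinates are those of the deposited table, and the sources used here do not name its genome build. Both PSC libraries listed CDX2 at 0 counts. The DE libraries had 1.4 and 1.01 FPKM, the AFE libraries 9.45 and 11.87 FPKM, and the LPO libraries 0.52 and 0.41 FPKM. AFE was thus the stage of highest CDX2, and every other library was at or under 1.4 FPKM. These levels rested on 75 read pairs in DE, 722 in AFE and 30 in LPO, summed over the libraries of a stage.

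On the scale of counts scaled to library size (CPM) after scaling between libraries, CDX2 averaged 2.62 ± 0.604 CPM in DE, 23.8 ± 3.89 CPM in AFE and 0.745 ± 0.11 CPM in LPO (SD, n = 2 each). DE was at least 8.0-fold above PSC, taking a floor of 3 read pairs per library for the zeros in PSC. AFE was 9.11-fold above DE, with a 95% exact counting interval of 7.18 to 11.7 (counting error only, as for all such intervals here). LPO was 32.0-fold below AFE (interval 22.0 to 47.3), and 3.51-fold below DE (interval 2.25 to 5.5). The order of stages was AFE, DE, LPO and PSC. LPO kept 3.13% of the AFE level and lay at least 2.28-fold above PSC. Within protein-coding genes, 57.1% had a higher FPKM than CDX2 in DE, 24.0% in AFE and 73.9% in LPO. On the FPKM scale the LPO level was 22.9-fold below AFE, a smaller ratio than by CPM, and the FPKM of a library summed to 345563 and 347824 in LPO, but to 439098 to 467008 over the rest. In bulk samples, fewer cells that express a gene and less of its RNA per cell cannot be told apart.

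CDH17 (ENSSSCG00000006106) is a protein-coding gene on the plus strand of chromosome 4, from 42515306 to 42597772, also with 1 transcript in the file. The PSC libraries listed it at 0, and both DE libraries had 0.03 FPKM. The AFE libraries had 0.09 and 0.13 FPKM, and the LPO libraries 13.87 and 13.21 FPKM. LPO therefore held nearly all of the CDH17 RNA measured, with 4 read pairs in DE, 14 in AFE and 1599 in LPO.

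By CPM, CDH17 averaged 0.139 ± 0.00128 in DE, 0.454 ± 0.112 in AFE and 40.1 ± 1.25 in LPO (SD, n = 2 each). LPO was 88.1-fold above AFE (95% exact counting interval 51.5 to 159) and at least 122-fold above PSC. The ratio of LPO to DE was 288, with an interval of 112 to 1060 that reflects the 4 read pairs in DE. The ratio of AFE to DE was 3.26, with an interval of 1.04 to 13.8. The order of stages was LPO, AFE, DE and PSC. DE and PSC were both at or under the floor of 3 read pairs per library, so a difference between them was not detectable at this depth. In LPO 23.1% of protein-coding genes had a higher FPKM than CDH17, a rank near that of CDX2 in AFE.

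**Figure D1:**
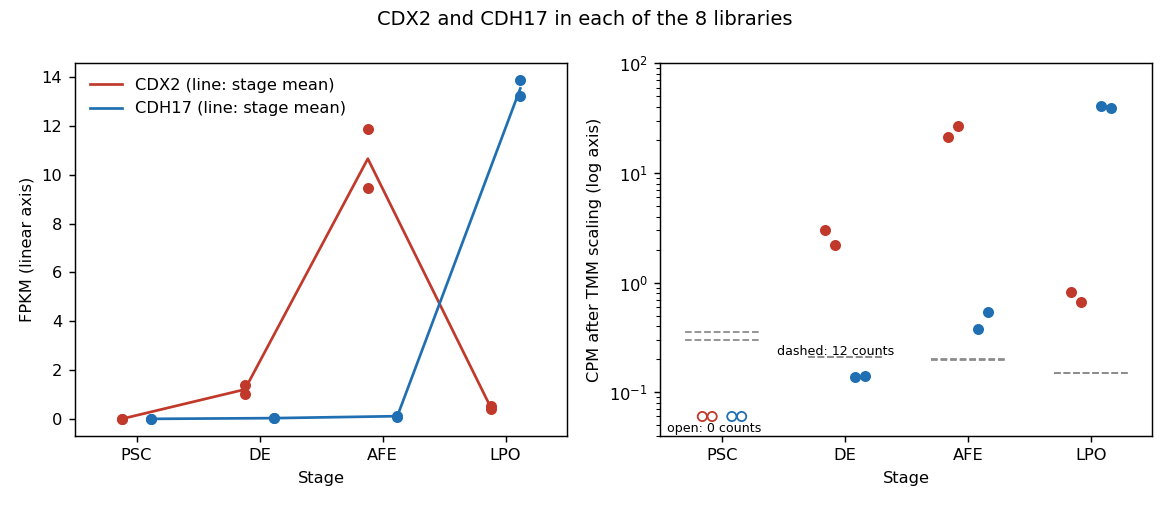
CDX2 (red) and CDH17 (blue) in each of the 8 libraries by stage, in FPKM on a linear axis with lines through stage means (left) and in CPM on a log axis (right), where dashed lines mark 12 counts (3 read pairs) and open circles 0 counts. CDX2 is highest in AFE at 9.45 and 11.87 FPKM and CDH17 in LPO at 13.87 and 13.21 FPKM.

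The courses ran opposite ways in 1 step only. From AFE to LPO the log2 CPM ratio, LPO over AFE, was -5.0 for CDX2 and 6.46 for CDH17. From DE to AFE both genes were higher in AFE, although CDH17 there was at 1.13% of its LPO level by CPM. FPKM corrects for transcript length, so the genes may be set against each other within a stage. In DE CDX2 averaged 1.21 ± 0.276 FPKM, while CDH17 was under the floor of 3 read pairs per library. In AFE CDX2 averaged 10.7 ± 1.71 FPKM and CDH17 0.11 ± 0.0283 FPKM, the CDH17 value resting on 14 read pairs. In LPO the order was turned round, with CDX2 at 0.465 ± 0.0778 FPKM and CDH17 at 13.5 ± 0.467 FPKM (SD, n = 2 each). No stage held both genes above 1 FPKM.

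CDX2 has relatives in the genome that share its homeobox class. CDX1, a fellow intestinal and posterior factor, had 0.66 and 0.53 FPKM in PSC, 0.12 and 0.06 in DE, 0 and 0.12 in AFE and 0.97 and 0.54 in LPO. It was not called in any of the 3 steps (edgeR adjusted p = 0.15, 0.78 and 0.092), and its AFE libraries, where CDX2 was highest, were at or under the floor. CDX4, a posterior axis factor, had 11.53 and 10.73 FPKM in PSC and 0.5 and 0.17 FPKM in DE, and all AFE and LPO libraries listed it at 0. CDX4 fell 31.9-fold in DE against PSC (adjusted p = 0.00062) and at least 2.76-fold in AFE against DE (adjusted p = 0.0051). CDX4 was thus highest in PSC and CDX2 in AFE. For CDX1 the highest stage was PSC by CPM and LPO by FPKM, and LPO was not called against PSC (adjusted p = 0.96). PDX1, the ParaHox factor of pancreas and duodenum, did not exceed 0.38 FPKM in any library. Of the 4 tested genes on the list of CDX and ParaHox relatives, none was called higher in any step. In LPO against AFE DESeq2 called 1 of them higher and limma on log2(FPKM + 1) called 2, while none passed an unadjusted p of 0.05 in edgeR; in DE against PSC 1 did.

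Among other cadherins, the classical epithelial and mesenchymal types were at higher levels than CDH17 at every stage. CDH1, E-cadherin, averaged 139, 80.1, 74.6 and 133 FPKM in PSC, DE, AFE and LPO. CDH1 rose 1.26-fold in LPO against AFE (adjusted p = 0.0008). CDH2, N-cadherin, averaged 8, 60.1, 16 and 17.9 FPKM over the same stages. It was called 1.26-fold lower in LPO against AFE (adjusted p = 0.0038), yet its FPKM were higher in LPO, and a limma fit to log2(FPKM + 1) gave 0.16 higher in log2 (adjusted p = 0.049). CDH3, P-cadherin of basal and placental epithelia, shared part of the course of CDX2: it rose 18.6-fold in AFE against DE (adjusted p = 5e-07) and fell 2.24-fold in LPO against AFE (adjusted p = 1.5e-05). CDH11, a cadherin of mesenchymal cells, had 70.03 and 65.31 FPKM in LPO and 0.86 and 0.94 FPKM in AFE. That is a 53.3-fold rise (adjusted p = 1.6e-07), in the step where CDH17 was 88.1-fold higher. CDH16, the kidney cadherin closest in structure to CDH17, reached only 0.11 and 0.15 FPKM in LPO, against 0.03 and 0.06 FPKM in AFE (adjusted p = 0.51). Its call in AFE against DE (adjusted p = 0.038) was at the floor and was lost without any single DE, AFE or LPO library (adjusted p = 0.11 to 0.18).

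Over the 23 cadherins tested besides CDH17, 11 rose and 4 fell in LPO against AFE, which is 47.8% and 17.4%, against 30.2% and 29.6% of all genes. Leaving out 1 library gave 8 to 12 rising. Their median log2 change was 2.37 (2.07 with genes at 0 in a stage set to their bound), against 0.09 over all genes. In AFE against DE 2 rose and 8 fell (8.7% and 34.8%, against 17.9% and 17.4% of all genes). Without DE replicate 1 or any single AFE or LPO library 1 rose. Cadherins that fell there and rose in the next step included CDH15 of muscle, which fell 46.3-fold (adjusted p = 2.4e-05) and then rose 8.01-fold (adjusted p = 0.00011), and CDH10, which fell 5.7-fold (adjusted p = 0.00059) and rose 6.39-fold (adjusted p = 0.00013). CDHR5, a protocadherin of the intestinal brush border picked after its values were seen, had 0.64 and 0.46 FPKM in LPO. It had 0.03 and 0.11 FPKM in AFE and was not called (adjusted p = 0.13).

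**Figure D2:**
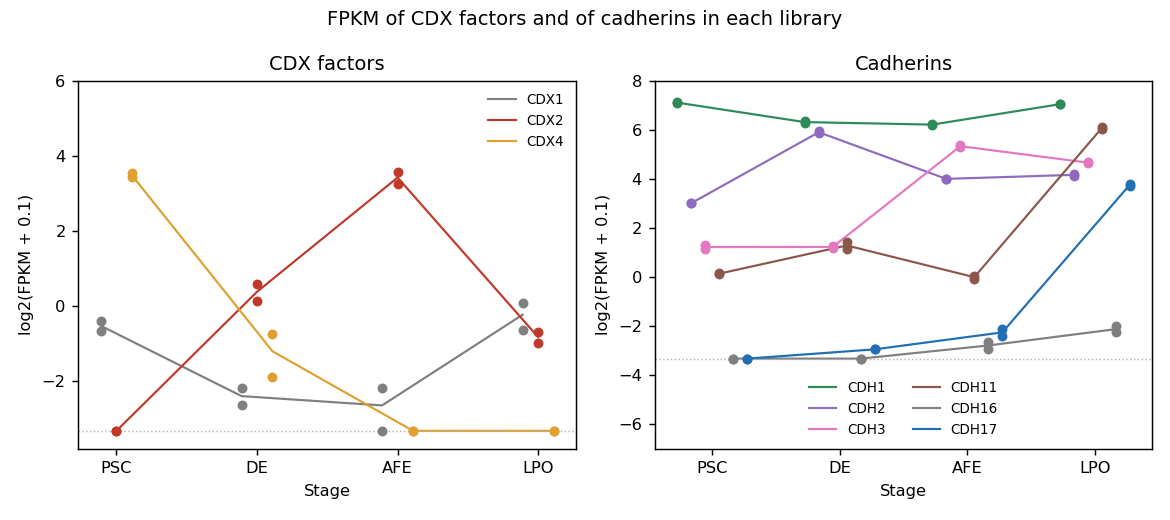
Level of CDX2 beside CDX1 and CDX4 (left), and of CDH17 beside 5 other cadherins (right), as log2(FPKM + 0.1), with a point per library, a line through stage means and a dotted line at 0 FPKM. CDX4 is at 0 in AFE, where CDX2 is highest, and CDH11 and CDH17 are both far higher in LPO than in AFE.

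More of the other transcription factors of intestinal endoderm rose in DE than in AFE, the stage of highest CDX2. Of 17 tested, 9 rose and 4 fell in DE against PSC (52.9% and 23.5%, against 30.8% and 23.0% of all genes). HNF4A, the nuclear receptor of liver and intestinal epithelium, had 46.94 and 51.95 FPKM in DE and 0 and 0.11 FPKM in PSC (adjusted p = 5.4e-06). GATA4, an endoderm factor that in mouse separates proximal from distal small intestine, rose 898-fold in that step (adjusted p = 1.9e-07). The PSC libraries had 0.04 and 0.12 FPKM of GATA4, from 40 counts in all, so the size of this ratio rests on a low level. GATA6 rose 125-fold (adjusted p = 8.2e-07). CDX2 in DE was at 1.4 and 1.01 FPKM, below GATA4, GATA6 and HNF4A by FPKM in both libraries.

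In AFE against DE, when CDX2 was 9.11-fold higher, 3 of the 17 rose and 6 fell (17.6% and 35.3%, against 17.9% and 17.4% of all genes). Without either PSC library the count rising was 5. The median log2 change was -0.45, or -0.36 with zeros at their bound, against 0.0 over all genes. HNF4A fell 60.0-fold to 0.91 and 0.68 FPKM in AFE (adjusted p = 4.5e-05). GATA4 fell 10.1-fold (adjusted p = 1.1e-05) and FOXA3 fell 3.56-fold (adjusted p = 9.5e-05). The factors that rose with CDX2 in this step were GATA5, PITX1 and KLF5. GATA5, an endoderm and heart factor, had 20.37 and 17.8 FPKM in AFE and 10.16 and 8.38 FPKM in DE, a 2.13-fold rise (adjusted p = 0.0012). It was the 1 factor of the 17 with its highest level in AFE, as CDX2 had (5.88%, against 18.5% of all genes tested). PITX1, a homeobox factor of the hindlimb picked after its values were seen, rose 5.93-fold (adjusted p = 0.0011).

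In LPO against AFE, when CDX2 was 32.0-fold lower and CDH17 88.1-fold higher, 5 of the 17 factors rose and 5 fell (29.4% each, against 30.2% and 29.6% of all genes). Leaving out 1 library gave 4 to 7 rising. GATA5 fell 5.66-fold with CDX2 (adjusted p = 5e-06). KLF5, an epithelial factor of intestinal crypts and also of airway epithelium, had 68.51 and 68.52 FPKM in LPO and 2.22 and 1.96 FPKM in AFE, a 23.3-fold rise (adjusted p = 5.7e-07). KLF4, found in goblet and barrier epithelia, rose 22.2-fold (adjusted p = 1.5e-05), and TCF7L2, the WNT effector of intestinal crypts, rose 11.0-fold (adjusted p = 1.7e-05). HNF4G, the HNF4 paralog of intestine, picked after its values were seen, rose 5.82-fold (adjusted p = 0.00019) to 2.85 and 3.06 FPKM in LPO, against 0.45 and 0.27 FPKM in AFE. HNF4A was at 1.97 and 2.49 FPKM in LPO and 0.91 and 0.68 FPKM in AFE. It missed the threshold (adjusted p = 0.051), passing it without either PSC library (adjusted p = 0.0015 and 0.0016).

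Of the enterocyte genes, which encode brush border, digestive and absorptive proteins, no step called more than 10 of 24 in either direction. In AFE against DE 4 rose and 7 fell (16.7% and 29.2%, against 17.9% and 17.4% of all genes). In LPO against AFE 8 rose and 6 fell (33.3% and 25.0%, against 30.2% and 29.6%), with a median log2 change of 0.44, or 0.13 with zeros at their bound, against 0.09 over all genes. In DE against PSC 10 rose and 5 fell (41.7% and 20.8%, against 30.8% and 23.0%), and without any single PSC or DE library 3 fell. The summed level of the 26 enterocyte genes in the table was 19.1 to 19.4 FPKM in PSC, 49.7 to 57.5 in DE, 46.4 to 47.4 in AFE and 54.4 to 61.3 in LPO.

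Single enterocyte genes followed different courses. MTTP, which loads lipid onto lipoproteins in intestine and liver, ran like CDX2, with 26.19 and 26.64 FPKM in AFE. It rose 7.96-fold in AFE against DE (adjusted p = 2.8e-06) and fell 129-fold in LPO against AFE (adjusted p = 1.5e-07), to 0.28 and 0.29 FPKM. FABP1, a fatty acid-binding protein of liver and small intestine, also stood above 0 in AFE alone, at 1.97 and 1.89 FPKM (at least 5.96-fold above DE, adjusted p = 0.015). FABP1 was picked after its values were seen, and this call was lost without either AFE library (adjusted p = 0.084 and 0.081). FABP2, the intestine-restricted paralog, was too low to test.

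VIL1, the brush border protein villin, was highest in DE at 20.89 and 22.58 FPKM. It fell 5.07-fold in AFE against DE (adjusted p = 5.8e-05) and 4.62-fold in LPO against AFE (adjusted p = 2.3e-05). ANPEP, a brush border aminopeptidase, fell 6.03-fold in AFE against DE (adjusted p = 0.00017) and rose 2.34-fold in LPO against AFE (adjusted p = 0.0025). Enterocyte genes that shared the LPO maximum of CDH17 included HEPH, the ferroxidase of intestinal iron export, at 18.31 and 18.28 FPKM in LPO and 2.73 and 2.51 FPKM in AFE (4.96-fold, adjusted p = 6.7e-06). USH1C, a scaffold of microvillar links, rose 5.86-fold (adjusted p = 1.9e-05). LPO was the highest stage for 45.8% of the 24 enterocyte genes, against 38.8% of all genes tested. TMPRSS15, the enteropeptidase of the duodenum, picked after its values were seen, reached 1.1 and 1.09 FPKM in LPO against 0.05 and 0.03 FPKM in AFE (19.4-fold, adjusted p = 0.00063).

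The secretory and stem cell list of the intestine had 12 tested genes, of which 7 rose and 2 fell in LPO against AFE (58.3% and 16.7%, against 30.2% and 29.6% of all genes). That count rested on every library of the comparison: without any single AFE or LPO library 2 or 3 rose. The median log2 change was 2.26, but 0.01 with zeros at their bound. AGR2, a disulfide isomerase of mucus-secreting cells in gut and airway, had 518.11 and 524.94 FPKM in LPO and 5.42 and 5.46 FPKM in AFE, a 67.9-fold rise (adjusted p = 1.1e-06). AGR2 made up most of the list's 530 to 536 FPKM in LPO. CLCA1, of goblet cells in both organs, had 3.35 and 3.48 FPKM in LPO and was at 0 in AFE and in both earlier stages (at least 49.1-fold, adjusted p = 0.00016). MUC2, the gel mucin that defines intestinal goblet cells, had 0.16 and 0.07 FPKM in LPO and was at 0 in AFE (at least 2.75-fold, adjusted p = 0.036). Its call was lost without any single AFE or LPO library (adjusted p = 0.11 to 0.19). CHGA, of enteroendocrine and neuroendocrine cells, fell 6.89-fold in the same step (adjusted p = 4.3e-07).

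**Figure D3:**
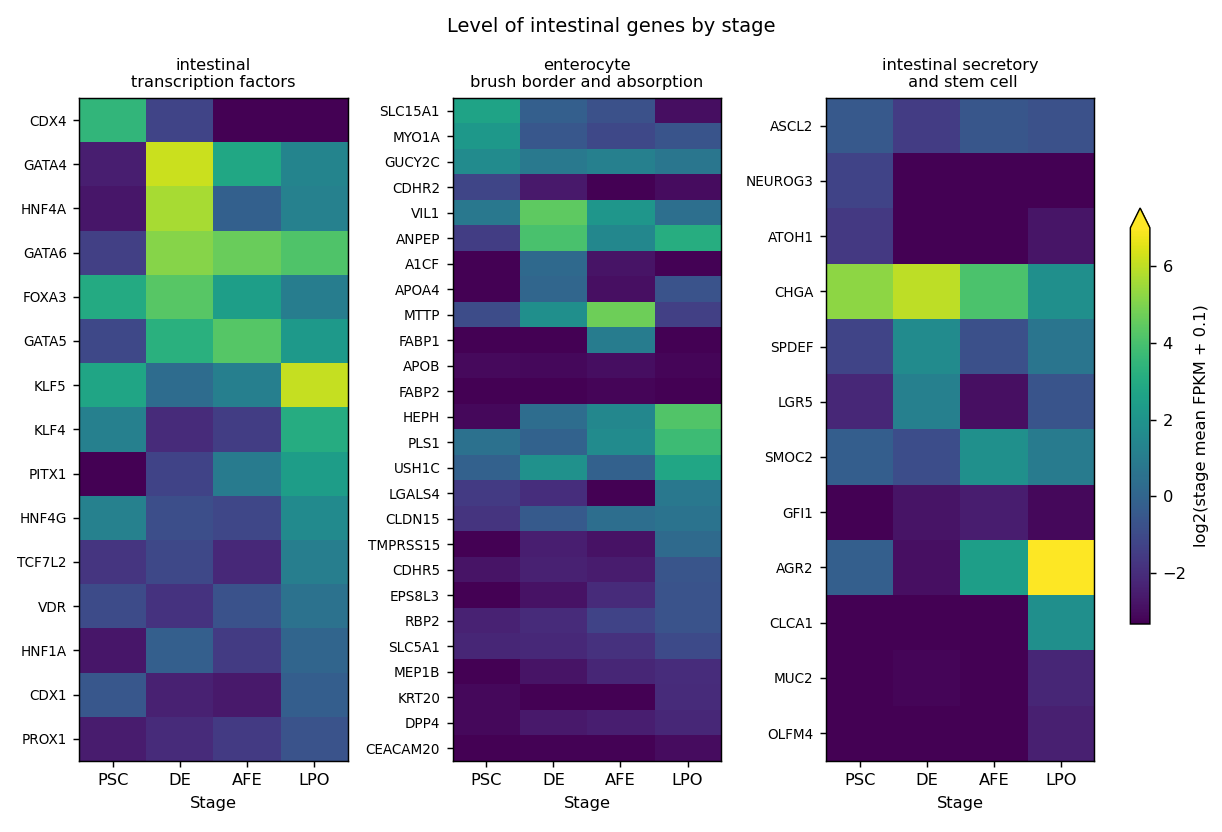
Stage mean level of the genes shown from the 3 intestinal lists, as log2(stage mean FPKM + 0.1) by colour, with stages on the x axis and genes on the y axis grouped by their stage of highest level; values above the top of the scale take its end colour. GATA5 and MTTP are highest in AFE, the stage of highest CDX2, whereas KLF5, HEPH and AGR2 are highest in LPO, the stage of highest CDH17.

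CDX2 is expressed outside the intestine as well, in trophectoderm and in the posterior axis, and those lists were read beside it. Of 14 trophectoderm genes tested, 1 rose and 7 fell in AFE against DE (7.14% and 50.0%, against 17.9% and 17.4% of all genes), while CDX2 was higher in AFE. Without either PSC library 4 rose, and without DE replicate 1 or either AFE library none did. GATA3, a trophectoderm factor also active in other epithelia, had 16.61 and 17.11 FPKM in AFE and 41.87 and 51.76 FPKM in DE (2.68-fold lower, adjusted p = 0.00035). None of the 14 was at 0 in AFE, and their sum of 12000 to 12300 FPKM there, against 22700 to 24700 FPKM in DE, came mostly from the simple-epithelium keratins KRT8 and KRT18. In LPO against AFE 4 rose and 4 fell (28.6% each, against 30.2% and 29.6%). The part of trophectoderm-type cells in the CDX2 level was not tested.

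For the posterior streak and tail bud, 4 of 18 genes rose and 5 fell in AFE against DE (22.2% and 27.8%, against 17.9% and 17.4% of all genes). In LPO against AFE 2 rose and 4 fell (11.1% and 22.2%, against 30.2% and 29.6% of all genes). Without AFE replicate 2 or LPO replicate 1 the falling count was 2. TBXT, the brachyury factor that defines the streak, was at 0 in PSC, DE and AFE, where CDX2 was highest. CYP26A1, which breaks down retinoic acid, ran like CDX2, with 281.35 and 275.82 FPKM in AFE. It rose 8.75-fold in AFE against DE (adjusted p = 3.6e-05) and fell 63.0-fold in LPO against AFE (adjusted p = 7.1e-07). MIXL1, a streak homeobox factor, rose 12.5-fold (adjusted p = 0.0076) and then fell 13.3-fold (adjusted p = 0.0032). Others fell in AFE against DE, when CDX2 was higher. FGF8, a growth factor of the streak and tail bud, had 0 and 0.11 FPKM in AFE and 7.65 and 8.31 FPKM in DE (adjusted p = 0.00047). FGF17, of the same family, fell 20.8-fold (adjusted p = 5.6e-05), and SP8, a zinc finger factor, fell at least 11.4-fold to 0 (adjusted p = 0.0022).

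Most posterior HOX genes, which mark axial position behind the foregut, ran with CDH17 rather than with CDX2 in LPO against AFE. Of 14 tested, 8 rose and none fell (57.1%, against 30.2% of all genes rising and 29.6% falling), with a median log2 change of 2.92. Without single libraries 7 to 9 rose and none fell, and none fell at an unadjusted p under 0.05 in edgeR or by DESeq2. HOXB9 had 64.69 and 66.12 FPKM in LPO and 4.23 and 4.94 FPKM in AFE, a 10.1-fold rise (adjusted p = 2.6e-06). HOXB8 rose 7.71-fold (adjusted p = 6.2e-05). HOXB13 and HOXD13 ran the other way in this step, with log2 ratios of -0.63 and -3.29, and neither was called. HOXD13 was picked after its values were seen. In AFE against DE 3 of 14 rose (21.4%, against 17.9% of all genes), but 1 without either AFE library and 5 without either PSC library. HOXB13, the last gene of its cluster and a tail and hindgut gene, had 1.6 and 1.21 FPKM in AFE and was at 0 in DE (at least 16.2-fold, adjusted p = 0.0032).

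Other endodermal organs and mesenchyme were set beside CDH17. Of 20 lung genes 7 rose and 6 fell in LPO against AFE (35.0% and 30.0%, against 30.2% and 29.6% of all genes). NKX2-1 rose 1.71-fold (adjusted p = 0.0045) to 18.65 and 18.86 FPKM in LPO, so lung factor and intestinal cadherin were highest in the same libraries. SOX9, of distal lung progenitors and other epithelia, rose 9.73-fold (adjusted p = 1.3e-06). LPCAT1, an enzyme of surfactant lipid synthesis, fell 5.13-fold (adjusted p = 8.3e-07), and the Iroquois factor IRX1 fell 8.4-fold (adjusted p = 0.00018). Among 15 genes of liver and pancreas 1 rose and 6 fell (6.67% and 40%, against 30.2% and 29.6% of all genes). Their median log2 change was -1.66, but 0.0 with zeros at their bound, against 0.09 over all genes. The falling calls included TTR, picked after its values were seen, which was at or under the floor in both stages. APOA1, an apolipoprotein of liver and intestine, fell 3.17-fold (adjusted p = 4.6e-07). Of 11 stomach genes 4 rose and 2 fell (36.4% and 18.2%), and 1 fell without AFE replicate 1 or either LPO library. SOX2, of foregut and stomach, rose 5.1-fold (adjusted p = 3.7e-05), whereas CAPN8, a stomach calpain, rose 16.1-fold in AFE against DE (adjusted p = 5e-07) and fell 18.8-fold in LPO against AFE (adjusted p = 1.6e-07), as CDX2 did in direction.

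Of 16 mesenchyme genes 12 rose and 2 fell in LPO against AFE (75.0% and 12.5%, against 30.2% and 29.6% of all genes), with a median log2 change of 3.52 against 0.09 over all genes. Without AFE replicate 2 or either LPO library 1 fell. The 16 summed to 2910 to 2960 FPKM in LPO and 218 to 227 FPKM in AFE, and none was at 0 in LPO. POSTN, a matrix protein of fibroblasts, had 377.33 and 372.32 FPKM in LPO and 2.95 and 3.03 FPKM in AFE, an 88.9-fold rise (adjusted p = 1.1e-07) of nearly the size of the CDH17 ratio. PRRX1, a mesenchymal homeobox factor, rose 45.3-fold (adjusted p = 5.6e-07). These genes moved with CDH17, and the part of mesenchymal cells in the LPO levels was not tested.

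**Figure D4:**
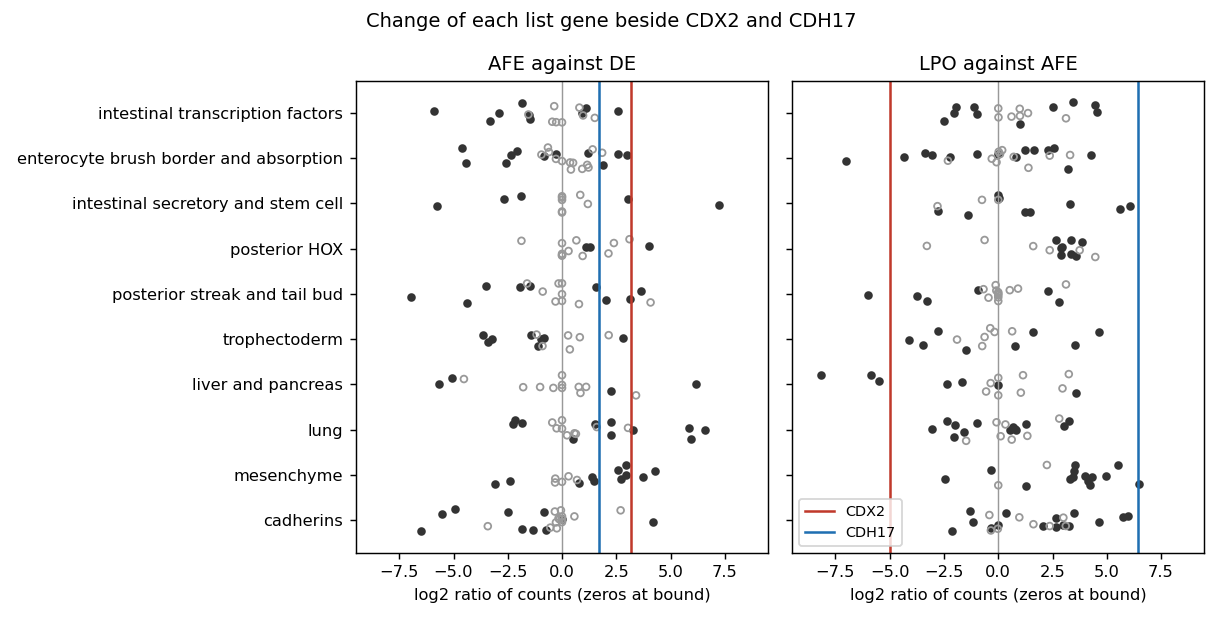
Each point is the log2 ratio of a tested list gene in AFE against DE (left) or LPO against AFE (right), filled where called and open where not, with genes at 0 in a stage placed at their bound and points at 0 including genes at or under the floor in both stages; lines give the log2 CPM ratios of CDX2 (red) and CDH17 (blue), which were not tested. On the right, CDX2 at -5.0 lies below all points of most lists, and CDH17 at 6.46 lies above all points of most lists. Both genes were chosen for their opposite changes between these stages.

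Over the whole course, LPO against PSC, 12 of 17 intestinal transcription factors rose and 2 fell (70.6% and 11.8%, against 41.5% and 28.8% of all genes). Of 24 enterocyte genes 10 rose and 6 fell (41.7% and 25.0%), and of 12 secretory and stem cell genes 6 rose and 2 fell (50.0% and 16.7%), with 3 rising without PSC replicate 2 or LPO replicate 1 and 1 falling without any single PSC or LPO library. Of 14 posterior HOX genes 13 rose (92.9%). HEPH had the smallest adjusted p among the enterocyte genes (adjusted p = 6.6e-08), at 18.31 and 18.28 FPKM in LPO against 0.01 and 0.02 FPKM in PSC. SLC15A1, the intestinal peptide transporter, was lower, at 0.03 and 0.03 FPKM in LPO against 6.38 and 6.04 FPKM in PSC (adjusted p = 1.3e-06). VIL1 was 1.74-fold lower in LPO than in PSC (adjusted p = 0.0062).

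The genes with courses most like those of CDX2 and CDH17 were found by the root mean square difference of centred log2 CPM over the 8 libraries, among 14206 tested genes with a symbol. The values describe courses with each gene's own mean level taken out. The size of a gene's changes is kept, and for a gene at 0 in a stage that size depends on its highest level. Nearest to CDX2 were CALHM6 (0.62), ANGPT2 (0.63), KCNE1 (0.68), F2 (0.81) and WNT6 (0.89), against a median of 3.48 over all genes. KCNE1, a potassium channel subunit, averaged 0, 9.87, 28.8 and 1.54 FPKM in PSC, DE, AFE and LPO. WNT6, a WNT ligand of epithelia, averaged 0, 2.26, 15.4 and 2.55 FPKM. F2, prothrombin of the liver, averaged 0, 0.855, 2.38 and 0.44 FPKM.

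Nearest to CDH17 were ZEB1 (0.42), C3 (0.44), GRIA2 (0.73), TSHZ3 (0.73) and TMEM30B (0.74), against a median of 3.71. ZEB1, a repressor of epithelial genes such as E-cadherin, averaged 0, 0.045, 0.13 and 14.5 FPKM in PSC, DE, AFE and LPO. C3, a complement protein, averaged 0.435, 1.47, 5.52 and 618 FPKM. None of these 10 genes is on an intestinal list used here. Those lists held 17, 24 and 12 tested genes among the 14206 candidates, too few for their absence to be informative.

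**Figure D5:**
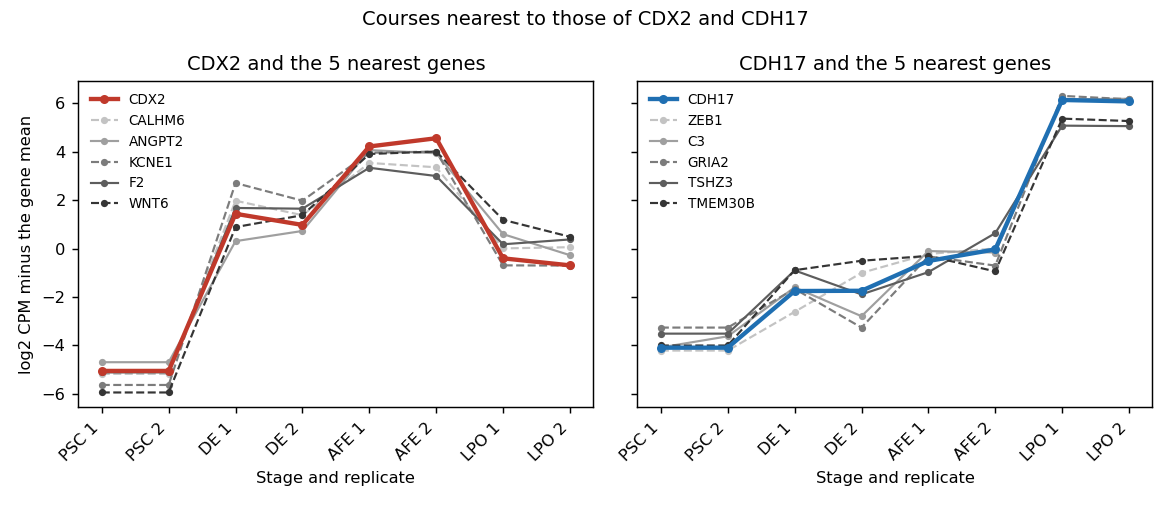
Centred log2 CPM (each gene minus its own mean over the 8 libraries) of CDX2 (left) and CDH17 (right) with the 5 nearest genes of each, with libraries on the x axis in stage order. The CDX2 set is highest in the AFE libraries and the CDH17 set in the LPO libraries.

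On the chromosome, no gene of the table overlapped CDX2 or CDH17. PDX1 lies 30653 bp below CDX2, and FLT3, a receptor kinase of blood progenitors, 24439 bp above it. FLT3 had 0.25 and 0.13 FPKM in AFE and was at 0 in LPO (at least 5.14-fold lower, adjusted p = 0.00064). Unlike CDX2, FLT3 was highest in PSC, at 0.78 and 0.4 FPKM, and had 0.12 FPKM in both DE libraries. Next to CDH17, 43377 bp below it, lies GEM, a small GTP-binding protein. GEM had 15.66 and 13.92 FPKM in LPO and 0.61 and 0.41 FPKM in AFE (20.7-fold, adjusted p = 3.8e-05), so it was highest in the same stage as CDH17. That stage was the highest for 38.8% of all genes tested. PDP1, a mitochondrial phosphatase 170698 bp above CDH17, rose 3.25-fold in that step (adjusted p = 2e-05).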

How the data were processed

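Messenger RNA was captured with oligo(dT) and sequenced as stranded read pairs on a NovaSeq, per the labels' protocols. The authors deposited, in 1 table, estimated counts (expected counts per gene, whole numbers, unscaled) and FPKM (per length and library size) for each of the 8 libraries. Tools named in the submitters' processing notes are HISAT2 2.2.1, cutadapt 1.9, edgeR, DESeq2 and StringTie 2.1.6; which tool made which value, and the use of strand in counting, are not given in the sources used here. Columns headed EPSC and Organoid were matched to PSC and LPO through the sample titles. Of values from 1 to 12, 46.4% to 50.7% lay at 4, 8 or 12, so 4 counts were read as 1 read pair. The floor of 12 counts lay at 0.150 to 0.357 CPM per library.

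The members, lists and rules were chosen with earlier results of these data known. Symbols missing from the table were filled in for 130 genes from a reference table; 10013 genes stayed without a symbol. List genes without an entry were not analysed here, and single values of some list genes are not reported here. Counts of 19346 genes past filterByExpr were scaled by TMM (0.901 to 1.27) and fitted over the 4 stages with edgeR 4.0.16 (R 4.3.3, glmQLFit and glmQLFTest), with Benjamini-Hochberg adjustment within a comparison and a threshold of 0.05. The test was run on simulated counts beforehand. Folds are ratios of mean CPM computed here, and a fold against a stage at 0 is a bound at 12 counts per library. No fold is given where both stages are at or under that floor. A ratio whose lower stage rests on a few read pairs has an exact counting interval.

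Named genes are CDX2, CDH17 and a core panel of their relatives and markers, up to 4 called genes per list and comparison with the smallest adjusted p that reached 1 FPKM, the 5 nearest genes by course, and chromosomal neighbours. Genes named beyond this are said to be picked after their values were seen. Alternatives were DESeq2 1.42.0, limma 3.58.1 on log2 FPKM, other scalings and filters, a replicate block, counts divided by 4, fits to the compared libraries alone and single libraries left out. With 2 libraries against 2, an exact permutation test cannot go below p = 0.333. Figures used Python 3.11.15 and matplotlib 3.10.9.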

Additional observations from a re-analysis of the deposited data

How the results depend on the processing

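The log2 CPM ratio of LPO to AFE was -5.0 for CDX2 and 6.46 for CDH17. With total counts in place of TMM it was -4.51 and 6.95, and by deposited FPKM -4.52 and 6.94. The LPO to DE ratio, -1.81 for CDX2 and 8.17 for CDH17, was -1.36 and 8.62 with total counts, -1.37 and 8.82 by FPKM, and 8.22 for CDH17 with DESeq2 size factors. No ratio of CDX2 or CDH17 changed sign in any alternative run. Total counts moved the median log2 change of all genes in LPO against AFE by 0.48 and in LPO against PSC by 0.42; DESeq2 size factors moved DE against PSC by -0.16 and LPO against PSC by -0.12.

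Genes called in AFE against DE numbered 6838, and 4535 to 7894 with a library left out, the lowest without AFE replicate 2. Those in LPO against PSC numbered 13602, and 8604 with a filter of 5 FPKM. Same-numbered libraries of different stages did not deviate together (correlations -0.0136 to 0.00782). The values thus showed no pairing by number, but cannot tell whether same-numbered libraries shared a culture. A replicate block called 9759 genes in DE against PSC, 6137 in AFE against DE, 10788 in LPO against AFE and 12596 in LPO against PSC.

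Of 7699 values for 464 comparisons of single named genes, 7359 kept direction and side of the threshold, 206 lost the call, 130 gained it and 4 reversed. The reversals were CDH2 (0.16 with a pseudocount of 1 and 0.16 with 0.1) and TAGLN (0.17 and 0.17) in LPO against AFE, both in limma fits to log2 FPKM; the cause was not tested. Of the counts of called list genes under alternatives, 1822 stayed within 1.5 times and 218 did not. Depth limits CDH17 in PSC, DE and AFE, CDX2 in PSC, CDX1 in DE and AFE, and MUC2 and CDH16 throughout.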

Other observations

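Genes without a symbol flank CDX2. A long non-coding RNA entry, ENSSSCG00000033434, lies 5877 bp below CDX2 on the same strand. It was at 0 in PSC, had 0 and 0.05 FPKM in DE and 0.22 and 0.26 FPKM in AFE, and was at 0 in LPO, so AFE was its highest stage, as it was for CDX2. A protein-coding entry, ENSSSCG00000009316, lies 7381 bp above CDX2. It had 1.11 and 0.72 FPKM in PSC, 0.31 and 0.27 FPKM in DE and 1.39 and 1.48 FPKM in AFE, and was at 0 in LPO. Unlike CDX2, it was thus present in PSC. Both entries were picked after their values were seen and were not tested.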
